A study of Homo sapiens with 24 samples.

Results

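The data are the MYC-tag chromatin immunoprecipitation peaks of cells that overexpress METTL7A, in the osimertinib-resistant line PC9-OR and in its parental line PC9. They were taken as all peaks of the PC9-OR METTL7A list and of the PC9 METTL7A list, 4993 of the 6236 peaks in the 6 lists of the series. PC9 comes from a human lung adenocarcinoma and grows on signals from mutant EGFR. PC9-OR is its resistant counterpart and was grown in 1 uM of osimertinib, which blocks the EGFR kinase, while PC9 had 0 uM. Both groups carry METTL7A fused to a MYC tag and FLAG, and each has 2 immunoprecipitated libraries and 2 inputs among the 24 libraries of the series. The background comes from wild-type cells of both lines, PC9-OR with an empty vector and PC9-OR with the METTL7A form called K86A. Resistance and the drug in the medium cannot be told apart, and the labels do not say whether each line is 1 clone.

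METTL7A belongs to the methyltransferase-like proteins and sits on membranes such as those of lipid droplets, so an antibody against its tag is used here to ask where, if anywhere, the protein meets chromatin. In such an assay sheared DNA bound to the tagged protein is pulled down and sequenced, and a peak is a place where fragments pile up above the level expected there. The peak caller MACS2 sets that level from control reads near each place, and it never goes below the mean over the genome. A stretch of DNA that gives many control reads therefore has a high local background, and a peak there needs more fragments to be called. Resistance to EGFR inhibitors is known to arise with extra copies of oncogenes or receptors in some cells, and extra copies are among the things that raise both pulled-down and control reads.

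The peak numbers in the PC9-OR list restart once, so the list holds 2 peak-calling runs, here called first and second by their place. The PC9 METTL7A list holds 1 run. Taking each run as a replicate is an inference, and p-values over runs measure the spread between runs, which may be technical. The total reads of each library are not part of the peak lists, and every interval below is an exact 95% interval that covers counting error only.

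The METTL7A peaks of the resistant line were almost all from its second run. PC9 had 56 peaks (Poisson interval 42.3 to 72.7). The first PC9-OR run had 67 (51.9 to 85.1), which was 1.20 times as many, with overlapping intervals. The second PC9-OR run had 4870 (4734 to 5009), which was 87.0 times the PC9 number, 72.7 times the first PC9-OR run, and 98.6% of the PC9-OR list. On the log2 scale the PC9-OR runs had 9.16 ± 4.37 (SD, n = 2 runs) and PC9 had 5.81 (1 run), a difference of 3.35. The two-sided exact permutation test over runs gave p = 0.667, the smallest p that its 3 arrangements allow, so this design cannot separate the lines by peak number. The 88.2-fold ratio of the lists rests on the second run.

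The 3 runs also differed in the kind of peak they held. From the deposited fold and p-value of each peak the number of fragments at its summit and its local background could be recovered. The median peak was 259 bp wide in PC9 (236 to 1209), 255 bp in the first PC9-OR run (227 to 433) and 399 bp in the second (314 to 3769). The median summit held 5.5 fragments in PC9 (4 to 342), 10 in the first PC9-OR run (7 to 429) and 6 in the second (4 to 680). At a −log10 q of at least 5, 4 peaks were left in PC9, 6 in the first PC9-OR run and 430 in the second, which were 7.14%, 8.96% and 8.83% of their runs. These shares of stronger peaks were close as point values, but they rest on 4 peaks in PC9 and 6 in the first PC9-OR run. The median deposited fold enrichment was 5.21, 5.37 and 4.63 in that order.

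The mean over the genome shows in each run as its most common background and is called its floor here. It was 0.151 expected fragments in PC9, 0.676 in the first PC9-OR run and 0.341 in the second. Divided by the fragment length, the floor gives the usable fragments of a run if the same genome size was set for each, which were 4.67 times the PC9 level in the first PC9-OR run and 1.71 times in the second. The run with 4870 peaks was thus the shallower of the PC9-OR runs, at a depth below that of the run with 67 peaks by a ratio of 2.74. Every recovered background in the 3 runs was the floor or a whole number of tags counted in a window of 10 kb or of the fragment length, to within 0.03 of a tag's weight. The fragment lengths that this gave were 237, 228 and 314 bases, beside smallest peak widths of 236, 227 and 314 bp. The backgrounds therefore count tags of a control library, and the sources used here do not say which library served as control.

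Chromosome arm 20q had the most METTL7A peaks for its length in both PC9-OR runs and none in PC9. Arms were compared by the ratio of their peaks to the number their length alone would give, over 48 arms of at least 10 Mb in GRCh37. The first PC9-OR run had 11 peaks on 20q, 14.5 times its share by length (7.25 to 25.99), and the second had 546, or 9.77 times (8.97 to 10.6). PC9 had 0 of 56 peaks there, where length alone would give 0.643, and it had 0 peaks on 23 of the 48 arms. The 48 include 6 arms that had 0 peaks in all 3 METTL7A runs. The 20q peaks of PC9-OR are clustered, so bounds from counts understate the spread and do not separate the lines. The upper bound in PC9, a ratio of 5.74, was below the lower bound of both PC9-OR runs. The PC9 wild-type runs had 21 peaks at 1.60 times in the first and 3 peaks at 3.15 times in the second, whose interval of 0.650 to 9.20 reaches the lower bounds of both. Over all arms, 14.6% exceeded 2 times their share by length in PC9, 16.7% in the first PC9-OR run and 14.6% in the second.

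**Figure D1:**
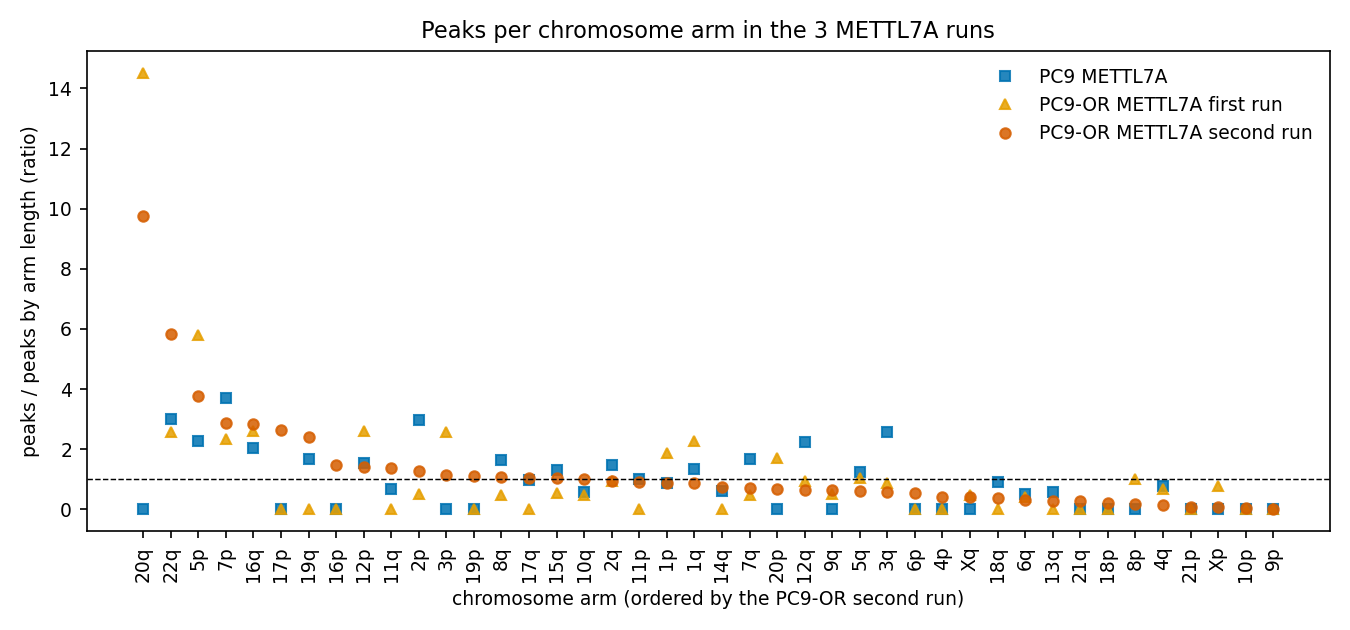
Peaks on each chromosome arm of at least 10 Mb divided by the number expected from arm length (vertical axis, ratio; the dashed line is 1), for the 42 arms with a peak in the second PC9-OR run, in its order. Squares are PC9, triangles the first and circles the second PC9-OR run; 20q stands at 14.5 and 9.77 in the PC9-OR runs and at 0 in PC9.

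The next arms of the second run, 22q and 5p, had peaks in every METTL7A run. Arm 22q had 336 second-run peaks, 5.84 times its share by length, with 2 peaks each in PC9 and the first PC9-OR run, at 3.02 times (0.366 to 10.9) and 2.56 times (0.310 to 9.26). The PC9 wild-type second run had 5 peaks there, at 5.09 times, and the first had 12, at 0.888 times (0.459 to 1.55). Arm 5p had 286 second-run peaks at 3.76 times, 6 first-run peaks at 5.81 times and 2 PC9 peaks at 2.28 times. The wild-type second run had 9 peaks on 5p at 6.94 times, its highest arm, and the wild-type first run had 29 at 1.62 times. Of the wild-type runs, then, the second was high on both arms, and the first did not measurably depart from its share by length on 22q.

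Arms 7p, 16q and 17p followed in the second run with 270, 240 and 100 peaks, at 2.87, 2.84 and 2.65 times. PC9 had its highest ratio on 7p, with 4 peaks at 3.69 times, and 0 on 17p, where the first PC9-OR run also had 0. The lowest arms of the second run were the 2 arms of chromosome Y and the short arms of chromosomes 13, 14, 15 and 22, all at 0 peaks. These arms also had 0 peaks in PC9, the first PC9-OR run and both PC9 wild-type runs. Whether reads can be placed on them was not examined, so their zeros tell nothing particular to the second run. PC9 had at least 4 peaks also on 2p, 3q, 2q and 12q, with 5, 5, 4 and 4. The first PC9-OR run had at least 4 also on 1q, 1p and 3p, with 6, 5 and 5. On 3q the second run was at 0.594 times and on 12q at 0.635 times, below its share by length. Across the 48 arms the second run's ratios had a Spearman rho of 0.647 with the wild-type second run of PC9, 0.566 with PC9 METTL7A and 0.488 with the first PC9-OR run. Pearson's r was 0.643, 0.327 and 0.855 in the same order, so the 2 measures rank the runs differently. These are descriptions across arms that share length and base composition. The arms at 0 in every run are among the 48, and their shared zeros enter both measures.

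The second PC9-OR run also held more peaks in lightly stained bands and near chromosome ends than their length would give. No excess was detectable in the few peaks of the first run and PC9. Their intervals for both shares also lay below those of the second run. Light Giemsa bands, known to be richer in genes and GC bases, held 68.9% of its peaks (67.6 to 70.2) beside 42.2% of the genome's length. They held 44.6% in PC9 (31.3 to 58.5) and 34.8% in the first PC9-OR run (23.5 to 47.6), whose intervals include the share by length. The darkest bands, 16.1% of the length, held 2.90% of second-run peaks, 14 of 56 PC9 peaks and 13.6% of first-run peaks. The last 5 Mb before a chromosome end make up 7.75% of the length. They held 33.0% of second-run peaks (31.7 to 34.3), 13.6% of first-run peaks (6.43 to 24.3) and 7.14% of PC9 peaks (1.98 to 17.3).

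The PC9 wild-type second run, with no tagged METTL7A, had the same direction in all 3 of these shares as the second PC9-OR METTL7A run. Its share in light bands was 73.5% (62.7 to 82.6), in the darkest bands 3.61% (0.752 to 10.2) and near chromosome ends 21 of 83 (16.4% to 36.04%), and each of these intervals includes the METTL7A value. The PC9 wild-type first run, a very shallow run with summits of 2 to 4 fragments, had 44.7% in light bands and 5.77% near ends. Base composition of the peaks was not analysed here, and its part in these shares was not tested.

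**Figure D2:**
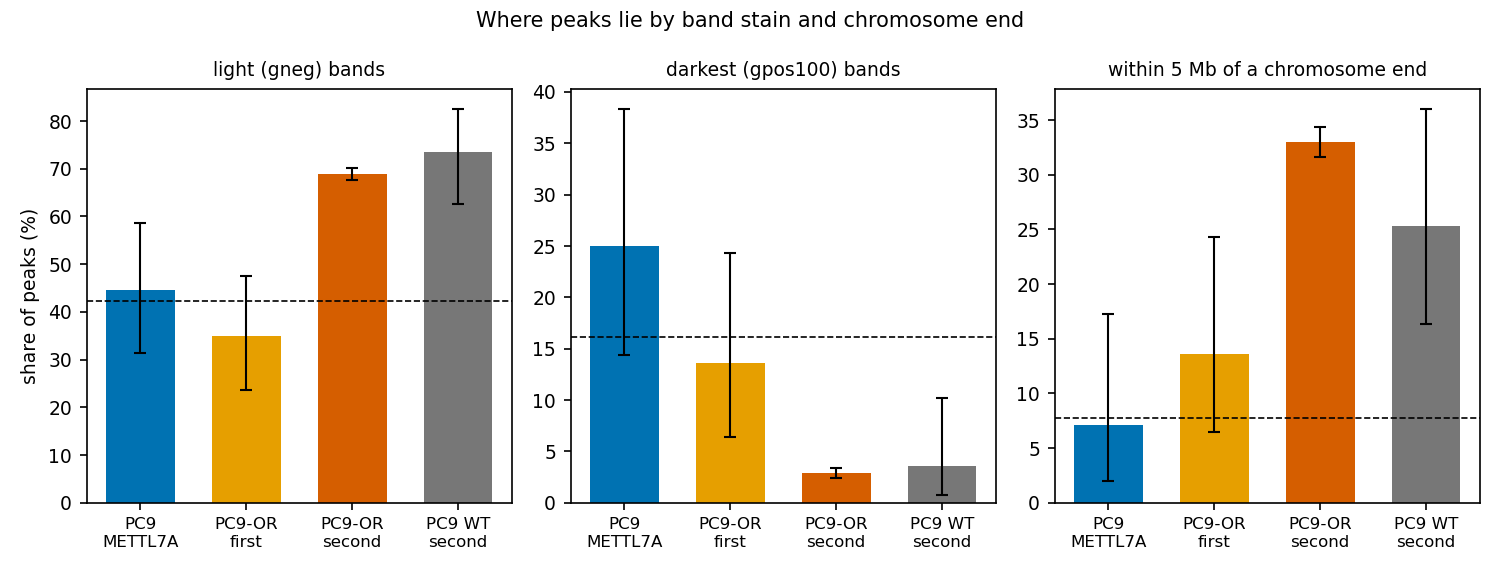
Share of peaks (vertical axes, percent) in light bands, in the darkest bands and within 5 Mb of a chromosome end, for the 3 METTL7A runs and the PC9 wild-type second run; error bars are exact 95% binomial intervals and dashed lines the share of the genome's length. The second PC9-OR run (68.9%, 2.90% and 33.0%) and the wild-type run (73.5%, 3.61% and 21 of 83) depart from the dashed lines the same way.

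METTL7A peaks of the second PC9-OR run lay close together, while those of the other runs mostly lay alone. The median gap to the nearest peak of the same run was 20.6 kb in the second run, 5257 kb in the first and 12168 kb in PC9. Another peak within 10 kb was found for 1925 of 4869 second-run peaks on the standard chromosomes, 39.5% (38.2 to 40.9). The same held for 7 of 66 first-run peaks, 10.6% (4.37 to 20.6), and for 2 of 56 PC9 peaks, 3.57% (0.435 to 12.3). In the PC9 wild-type runs it held for 0 of 83 peaks of the second, which allows up to 4.35%, and for 12 of 1143, 1.05%, of the first. A run with more peaks has shorter gaps, so these shares were also taken over the 56 strongest peaks of each run, by the deposited −log10 p. Then 32 of 56 second-run peaks, 57.1%, 6 of 56 first-run peaks and 2 of 56 PC9 peaks had a neighbour within 10 kb. Of those 56 second-run peaks 39 were on 20q and 48 had a local background above 2 floors. Their 57.1% thus describes mainly the run's strongest places and cannot show how crowded the whole run would be at equal numbers.

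**Figure D3:**
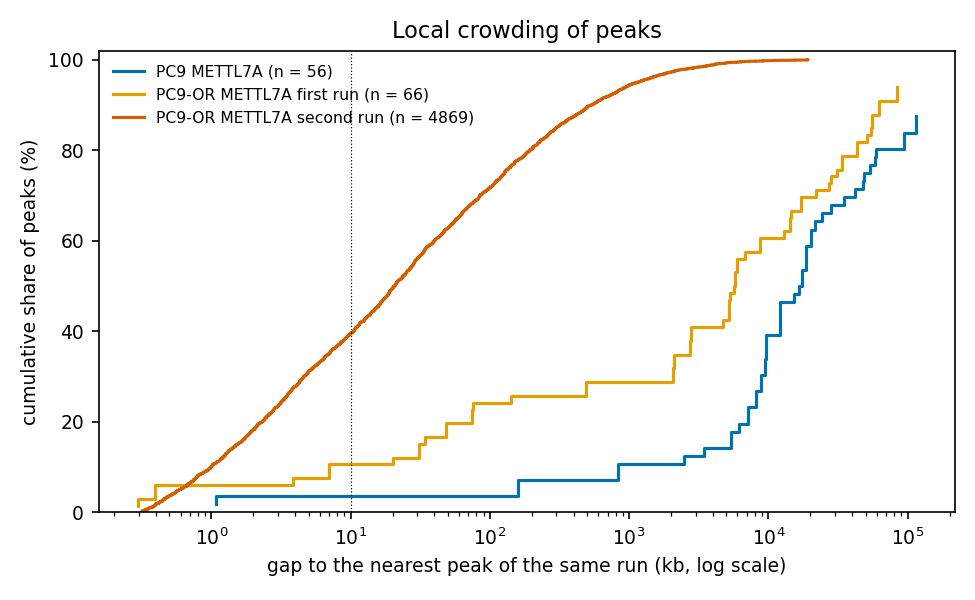
Cumulative share of peaks (vertical axis, percent) by the gap to the nearest peak of the same run (horizontal axis, kb, log scale; the dotted line is 10 kb). The second PC9-OR run reaches 39.5% at 10 kb, the first 10.6% and PC9 3.57%; lines of PC9 and the first run end below 100% because 7 and 4 peaks are alone on their chromosome.

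Clusters of the second run were many. Joining peaks within 10 kb left 3561 separate places, and 1171 peaks fell into 240 clusters of 3 or more. The fullest cluster held 29 peaks over 95.9 kb in 3p25.3, at chr3:10368072-10463964. Next came 25 peaks over 64.6 kb in 20q13.32, at chr20:58299666-58364249, and 24 over 77.8 kb in 12p11.1 beside the centromere, at chr12:34480796-34558606. The places in 3p25.3 and 20q13.32 were also places of raised local background, with medians of 2.19 and 9.77 floors, while the 12p11.1 cluster was at the floor. The first PC9-OR run had 1 cluster of 3 peaks, at chr20:58569173-58574278 in 20q13.33, and PC9 had none above 2 peaks, the pair at chr16:46388308-46390133 in 16q11.2.

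The fullest 1 Mb of both PC9-OR runs was the same, chr20:58000001-59000000, with 7 peaks of the first run and 144 of the second. PC9 and the PC9 wild-type second run had 0 peaks there. The next window down the arm, from 57 Mb on, had 3 and 87 peaks of the PC9-OR runs. In the second run the windows that followed were chr3:10000001-11000000 with 83 peaks and chr5:1000001-2000000 with 74. The 5p window differed from those on 20q and 3p: its median background was 1.20 floors, against 9.06 on 20q and 2.39 on 3p, and the wild-type second run of PC9 had 2 peaks in it. In PC9 no 1 Mb window held more than 2 METTL7A peaks.

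Both PC9-OR runs had most of their local backgrounds above 5 floors in the same bands on 20q and 3p. A background above 5 floors was found for 15 of 67 first-run peaks, 22.4% (13.11 to 34.2), for 227 of 4870 second-run peaks, 4.66% (4.09 to 5.29), and for 5 of 56 PC9 peaks, 8.93% (2.96 to 19.6). Of the 15 in the first run, 4 were in 20q13.32, 5 in 20q13.33, 1 each in 3p25.2 and 3p25.3, 3 in 3p26.1 and 1 on the mitochondrial chromosome. Of the 227 in the second run, 121 were in 20q13.32, 49 in 20q13.33, 23 in 3p25.2, 9 in 3p25.3 and 1 in 3p26.1, together 203 or 89.4%. None of the 5 in PC9 was in these bands. The threshold of 5 floors and the 5 bands were chosen after the backgrounds had been seen, so the counts describe these runs.

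**Figure D4:**
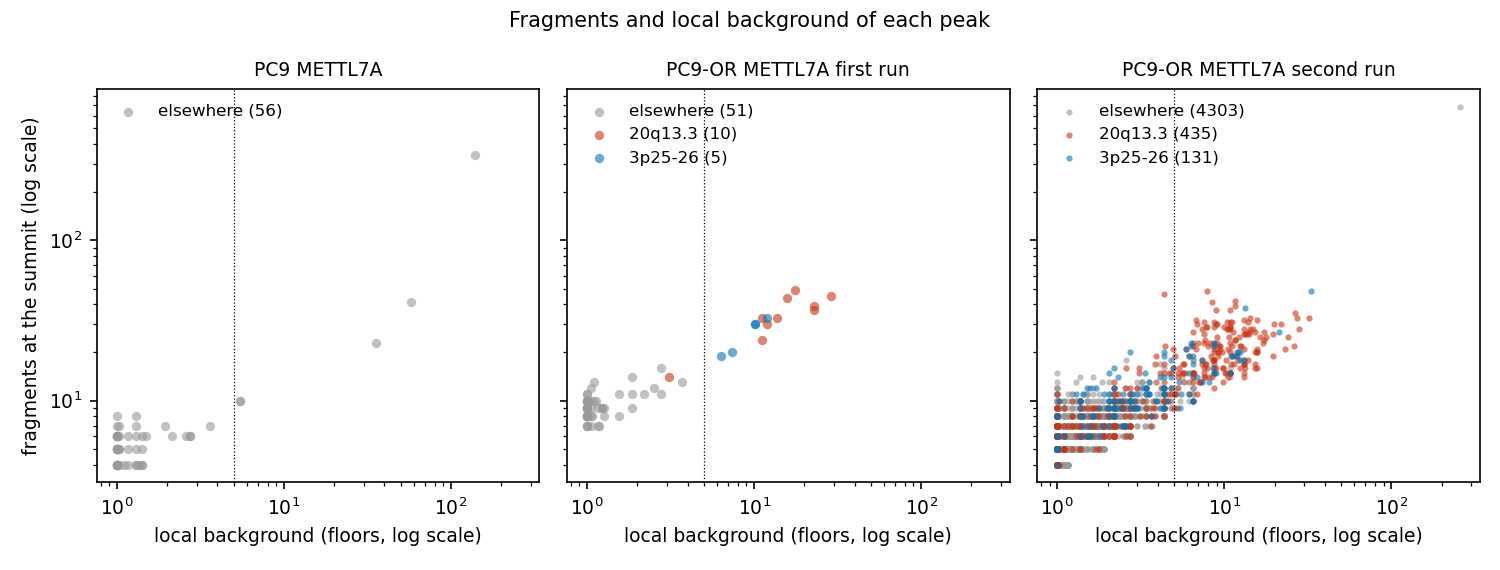
Recovered fragments at the summit (vertical axes, log scale) against local background in floors (horizontal axes, log scale; dotted line 5 floors) for each peak on the standard chromosomes in the 3 METTL7A runs. Right of the line, 14 first-run peaks and 203 of 226 second-run peaks are in 20q13.3 (red) or 3p25-26 (blue), and the 5 PC9 peaks are elsewhere (grey).

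On 20q the raised background covered a stretch of about 1.2 Mb. Between 57.5 and 58.7 Mb of chromosome 20 the first PC9-OR run had 9 peaks, all between 11.1 and 28.7 floors, with a median of 15.7. The second run had 177 peaks there, 161 of them above 5 floors and the lowest at 2.80, with a median of 9.23. From 58.7 to 59.8 Mb the second run had 61 peaks with a median of 2.60 floors, and from 59.8 to 61 Mb it had 50 peaks with a median of 1.09. On the other side, from 56 to 57.5 Mb, its 48 peaks had a median of 1.47 floors, and the first run's single peak there was at 3.07. The second run's median background was thus lower on both sides of the stretch, with 2 of its 48 peaks before it and 7 of its 61 just after it still above 5 floors. The first run had 0 peaks from 58.7 to 61 Mb, so the edges were read from the second run.

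What the parental line had in this stretch could be read at 1 place only. PC9 METTL7A had 0 peaks between 57.5 and 58.7 Mb, and the recovery gives a background only where there is a peak. Of 1243 peaks in the 7 background runs, 1 was in these stretches of 20q and 3p, a peak of the PC9 wild-type first run at chr20:58692185-58692501. Its background was 1.00 floor, from a very shallow run with a floor of 0.0131. None of the PC9-OR wild-type, empty-vector or K86A runs had a peak there, so the raised background is seen in the PC9-OR METTL7A controls and could not be read in the other PC9-OR cells. Whether it reflects the number of DNA copies was not tested.

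On chromosome 3 the raised background was broken into separate places. Between 7.2 and 7.3 Mb, in 3p26.1, the first run had 3 peaks between 7.33 and 12.02 floors and the second had 1, at 5.54. Between 9.8 and 13.0 Mb, in 3p25.3 and 3p25.2, the first run had 2 peaks at 6.36 and 10.2 floors. The second run had 124 peaks there with a median of 3.01 floors, of which 32 were above 5 and the highest was at 32.9. Before 7.2 Mb and from 13 to 15 Mb the second run had 2 and 14 peaks with medians of 1.00 floor. PC9 had 0 peaks on the whole of 3p.

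The raised places of the first PC9-OR run were raised in the second as well. All 14 first-run peaks above 5 floors on the standard chromosomes had second-run peaks within 50 kb. The median background of those neighbours ranged from 2.39 to 28.2 floors. The 14 are not separate places: the 3 peaks in 3p26.1 share 1 second-run neighbour at 5.54 floors, and the 3 peaks of the 20q13.33 cluster share the same 15, so the values describe fewer places than peaks. The floors of the runs come from separate fits, and the controls behind them may share reads, which is not given.

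**Figure D5:**
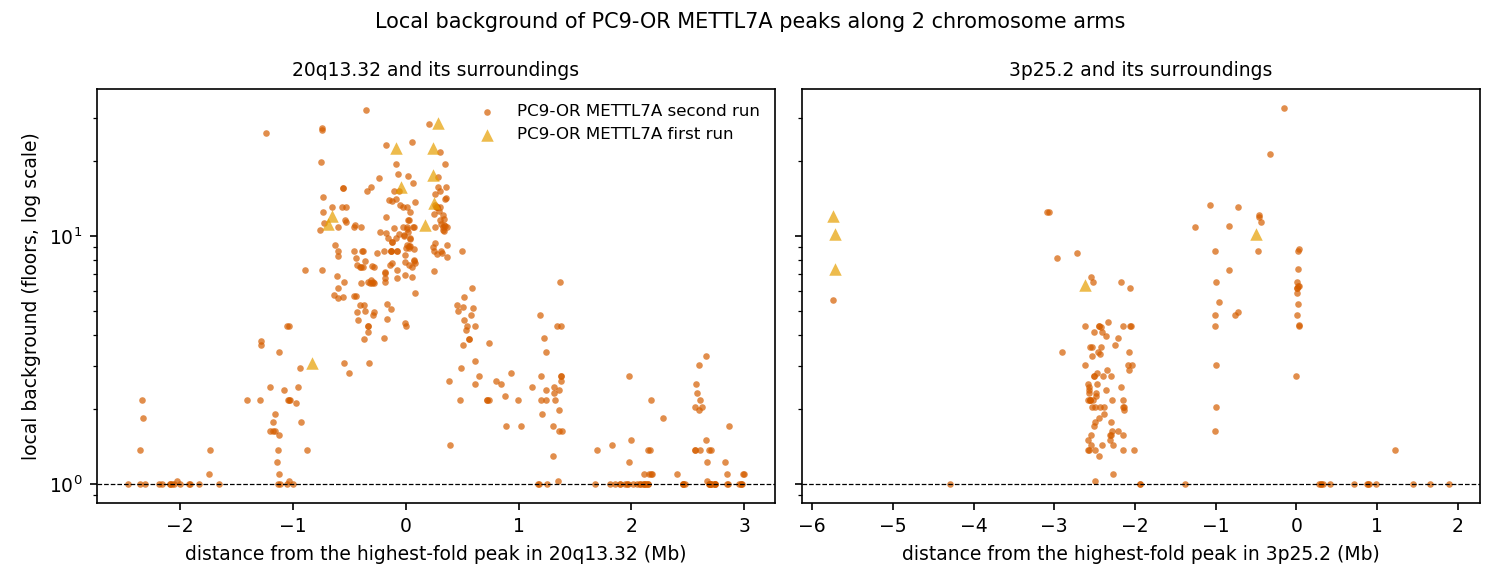
Local background in floors (vertical axis, log scale; the dashed line is 1 floor) of PC9-OR METTL7A peaks by distance in Mb from the highest-fold second-run peak of 20q13.32 (left) and of 3p25.2 (right). Circles are second-run and triangles first-run peaks. The second run is raised over about 1.2 Mb on 20q and in separate places on 3p. First-run peaks within these places are raised too, with too few peaks outside them to show an edge.

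PC9's own 5 peaks above 5 floors were of another kind. The highest, at 139 floors, was in 11p15.4 and is described with the shared peaks below. A pair in 16q11.2, a band of variable heterochromatin, stood at 35.5 and 57.3 floors with 23 and 41 fragments, and neither PC9-OR run had a peak within 10 kb of it. The other two, in 2p15 and 7p11.2, had 10 fragments each at 5.45 floors, which at this depth is 2 control tags over a fragment length. So the PC9 values above 5 floors were 3 at very high backgrounds and 2 that rest on 2 tags.

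At the lower threshold of 2 floors the runs were less distinct. The share above it was 17.9% in PC9 (8.91 to 30.4), 31.3% in the first PC9-OR run (20.6 to 43.8) and 17.5% in the second (16.4 to 18.5), beside 14.5% in the PC9 wild-type second run (7.70 to 23.9). Of the 850 second-run peaks above 2 floors, 196 rest on 1 control tag, as do 2 of 10 in PC9 and 0 of 21 in the first run. At the floor itself lay 58.6% of second-run peaks, 42.9% of PC9 peaks and 37.3% of first-run peaks.

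Peaks above 5 floors made up most of the 20q and 3p peaks of the first PC9-OR run but not of the second. In the stretch of 20q from 57.5 to 58.7 Mb, most peaks of both runs were above 5 floors, 9 of 9 and 161 of 177. On 20q the contrast thus lay in second-run peaks outside that stretch. On 3p between 9.8 and 13.0 Mb, 2 of 2 first-run and 32 of 124 second-run peaks were above 5 floors. With peaks above 5 floors left out, an alternative added after seeing the data, the first run kept 2 peaks on 20q, or 3.35 times the share by length, and 0 on 3p. The second run kept 375 on 20q, or 7.04 times, and 130 on 3p, or 0.952 times. Of the 56 strongest peaks in the second run, 39 were on 20q, 8 on 3p and 38 above 5 floors. Of the 56 strongest in the first run, 10 were on 20q and 5 on 3p. In the second run 479 of 566 peaks in the 5 raised bands, 84.6%, had a neighbour within 10 kb. Outside these bands 1446 of 4303 did, 33.6%, and their median background was at the floor. The run's crowding was thus not confined to these bands. Raised background was not confined to them either. Above 2 floors lay 485 of the 4303, and the median was 3.08 floors in 19q13.42 and 2.73 in 19q13.43.

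The 2 PC9-OR runs had few peaks at the same positions. Of 66 first-run peaks, 2 overlapped a second-run peak by at least 1 bp, 3.03% of the first run and 0.0411% of the second. They were chr20:57670060-57670410 in 20q13.32, with 30 fragments at a fold of 3.39, and chr20:58569836-58570217 in 20q13.33, with 37 fragments at 2.32. Both were in the raised stretch of 20q, at 12.02 and 22.7 floors. Within 10 kb of a second-run peak were 11 of 66 first-run peaks, of which 8 were among the 20 above 2 floors and 3 among the other 46. Within 100 kb were 25, or 37.9%.

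PC9 and PC9-OR shared 2 METTL7A positions. Both were shared with the second PC9-OR run, 3.57% of the PC9 peaks (0.435 to 12.3), and 0 of 56 PC9 peaks lay within 100 kb of a first-run peak. At chr11:5246136-5247344 in 11p15.4 PC9 had its highest fold, 15.6, with 342 fragments, and the second PC9-OR run had 680 fragments at a fold of 7.70. The same place was a peak in the wild-type second runs of both lines, with 246 fragments in PC9 and 3577 in PC9-OR, so it was also found in cells without tagged METTL7A. At chr8:86556508-86556862 in 8q21.2 PC9 had 6 fragments at a fold of 6.08, and the second PC9-OR run had 13 at a fold of 10.4. Both were at the floor of their run, and none of the background runs had a peak within 1 kb. This was the only shared METTL7A position that was absent from all other runs.

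The highest folds of each run lay in different places. After 11p15.4, PC9 had chr12:82183818-82184072 in 12q21.31 at a fold of 7.82 and chr5:158646414-158646724 in 5q33.3 at 7.53, both with 8 fragments. Its next were chr3:152663988-152664256 in 3q25.2 at 6.95 and chr5:168253771-168254057 in 5q34 at 6.92. The first PC9-OR run was led by chr5:24609784-24610014 in 5p14.1 at 8.04 with 13 fragments and chr2:72847103-72847336 in 2p13.2 at 7.59. A fold of 7.16 was found at both chr10:48664021-48664259 in 10q11.22 and chr5:39454766-39455045 in 5p13.1, and 6.66 at chr1:145117747-145117986 in 1q21.1. All 5 were at 1.85 floors or less, so the run's highest folds were not on its raised places.

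The second PC9-OR run had most of its highest folds in 20q13.32 and 3p25.2. Its highest fold, 18.9 with 46 fragments, was the 2689 bp peak chr20:58325087-58327775 in 20q13.32. Its background was 4.35 floors. In the same band lay chr20:58317075-58320260 at 13.319 with 48 fragments and 7.86 floors, and chr20:58315750-58316469 at 10.9 with 41 fragments and 8.41 floors. Between them in rank were chr5:769860-771899 in 5p15.33 at 11.9 with 15 fragments, at the floor, and chr3:12951830-12953853 in 3p25.2 at 10.9 with 20 fragments and 2.73 floors. So 4 of its 5 highest folds were in these bands, and 2 of the 5 were above 5 floors.

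The genes most often tied to resistance were read only by their cytogenetic band, since gene positions on GRCh37 were not used here. EGFR, the target of osimertinib, lies in 7p11.2, which held 33 second-run peaks, 0 first-run peaks, 1 PC9 peak and 2 peaks of the PC9 wild-type second run. MET, a receptor known for bypass resistance, lies in 7q31.2, which held 0 peaks in all of these runs. TERT, the telomerase subunit in 5p15.33, shared its band with 182 second-run peaks, 0 in the first run and PC9, and 4 in the wild-type second run. The band of MYC, the transcription factor gene in 8q24.21, held 5 second-run peaks and that of METTL7A itself, 12q13.12, held 10, with 0 in PC9 and the first PC9-OR run. Per Mb, the band of METTL7A stood at 2.65 times the second run's genome mean, that of EGFR at 5.25 times and that of TERT at 25.7 times. The wild-type second run was not scaled this way. It had 83 peaks in all, against 4870, so its few peaks in the EGFR and TERT bands were no smaller a share of their run.

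Outside the second run a few other gene bands held a peak. AXL, a receptor in 19q13.2, had 1 in PC9 and 15 in the second run. AURKA, a mitotic kinase in 20q13.2, had 1 first-run and 8 second-run peaks near the floor, and MDM2, the p53 ligase in 12q15, had 1 first-run peak. CCND1, in 11q13.3, had 1 peak in the PC9 wild-type second run. The second PC9-OR run had 40 there, 12.7 times its genome mean per Mb. Of these runs, only the second PC9-OR run had peaks in the band of CRKL, 22q11.21, with 128 at 18.9 times. Over the 20 gene bands counted here, 7 exceeded the second run's genome mean of 1.57 peaks per Mb, against 205 of all 862 bands, 23.8%. The median of the gene bands was 0.782 of that mean and of all bands 0.245. The bands were chosen with results of these data known, so nothing particular to these genes can be read from it.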

How the data were processed

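Chromatin was immunoprecipitated with a MYC-tag antibody in 12 libraries with 12 inputs, in 12 groups of 2 taken from the sample titles. Per the labels' protocols 20 ug of chromatin entered each immunoprecipitation. Per the submitters' processing notes the tools included Bowtie2 2.4.2 and MACS2 2.2.7.1, with build GRCh37; the sources used here give no settings or control. Each deposited peak list gives, per peak, the authors' score, their fold enrichment as a ratio to local background, and their −log10 p and −log10 q, used only to describe, rank and filter within a list. The lists hold 10 runs, told apart where peak numbers restart. Per-sample columns left out numbered 0.

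Here, with Python 3.11.15 and scipy 1.17.1, the fragments k and background b of each peak were solved from fold = (k + 1) / (b + 1) and the Poisson tail, as MACS2 defines them. All 4993 peaks gave a whole k, 0 had 2 solutions, and the largest misfit was 0.914 of the rounding tolerance. The steps were tested on simulated data. Bands came from circlize 0.4.16 in R 4.3.3. Arms, gaps (10 kb), floors (most common background of a run) and overlaps (1 bp) were computed per run, with exact binomial or Poisson intervals. Named were the 5 highest folds of each run, shared peaks, the 6 highest and 6 lowest arms, arms with at least 4 peaks in a small run, and listed gene bands; some listed genes were left out of the text and of the band count. No sequences were read, since a GRCh37 genome was not used here. The members and lists were chosen with earlier results of these data known. Alternatives covered stricter q and fragment limits, merging, centromere margins, equal numbers, distances, floors, overlap and leaving out runs.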

Additional observations from a re-analysis of the deposited data

Results flagged for a closer look

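The PC9 METTL7A list had fewer peaks than the PC9 wild-type lists, a log2 ratio of -4.45, and the PC9-OR METTL7A list had more than the PC9-OR wild-type list, a log2 ratio of 8.95. The direction was opposite in the lines for every pair of runs, from -4.35 to -0.57 in PC9 and from 2.90 to 12.25 in PC9-OR. The difference between the lines was not tested. Depth differed between these runs. The floor was 0.0131 in the PC9 wild-type first run, which gave 1143 of the wild-type peaks. The PC9 wild-type second run, with 83 peaks, had 1.28 times the usable fragments of PC9 METTL7A. Depth was not compared for the PC9-OR wild-type runs, and its part in the result was not tested.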

How the results depend on the processing

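The ratio of PC9-OR to PC9 peak number stayed between 65.9 and 109 under the q, fragment, merging and centromere settings, and fell from 87.0 to 1.20 between leaving out the first and the second PC9-OR run. The PC9 peaks that overlapped a PC9-OR peak numbered 2 without the first run and 0 without the second, and 1 with −log10 q limited to 5 or more. At that q limit the share on 20q was 60% in the first PC9-OR run (3 of 5) and 31.7% in the second, the share with a neighbour within 10 kb was 0% in PC9 and 0% in the first run, and the share above 2 floors was 50% in PC9 (2 of 4), 66.7% in the first run and 38.4% in the second. With at least 5 fragments the second run had 12.3% on 20q and 19.8% above 2 floors, and after merging within 10 kb 6.52% on 20q. Among the strongest peaks of each run in equal numbers, the second run had 69.6% on 20q, 57.1% with a neighbour and 85.7% above 2 floors. A neighbour within 100 kb was found for 24.24% of first-run and 71.8% of second-run peaks, and within 1 kb for 0% in PC9 and 10.1% in the second run. Above 1.5 floors lay 24.4% and above 5 floors 4.66% of second-run peaks. Added after seeing the data, leaving out peaks above 5 floors gave 20q shares of 3.85% and 8.08% in the PC9-OR runs and neighbour shares of 0% in PC9, 3.85% and 37.1% in the PC9-OR runs, and not counting backgrounds of 1 control tag gave 13.4% of the second run above 2 floors. The settings themselves change which peaks enter; no other cause was tested. The second run exceeded the first in its neighbour share under every setting with peaks in both. The 0 PC9 peaks on 20q could not change, since each setting only filters or merges the same PC9 peaks.

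No paired analysis was possible because the peak-calling runs carry no replicate numbers that tie PC9 to PC9-OR. With 1 PC9 run and 2 unlike PC9-OR runs, depth and run cannot be told apart from line, and intervals over peaks do not cover differences between runs. Backgrounds exist only at peaks, so stretches without a PC9 peak could not be compared between the lines.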
